A study of Homo sapiens with 3 samples.

Results

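Chromosome 1, the longest human chromosome, was followed from the tip of its short arm at 1p36 to the end of its long arm as a set of replication origin calls. The members were all calls on chromosome 1, 23316 EPIC2 regions of 247794 and 39609 MACS2 summits of 443480 over 3 replicates. They were split by hg19 position into 5 segments. These were 1p36 (chr1:1-28000000), the segment from 28 to 55 Mb, the middle of the short arm (chr1:55000001-121000000), 1q21-q23 (chr1:142000001-162000000) and the far long arm (chr1:162000001-249216371, where the last call ended). The split used positions and no measured value, and the band names are those of the rule, since no band map of hg19 was used here.

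The calls came from short nascent strand sequencing (SNS-seq), which isolates short RNA-primed DNA strands that lambda exonuclease leaves intact. The cells were HCT116, an established human colorectal cancer line, untreated in all samples, so the 3 replicates formed 1 group. The study mapped where origins fire in these cells, and each replicate had its own list of diffuse regions (EPIC2) and of single-base summits (MACS2). The labels give replicate numbers and say no more of how the cultures relate, so SDs and p-values cover only the spread between these samples.

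A replication origin is licensed before S phase, when the origin recognition complex loads the MCM helicase, and only some licensed sites fire in a given cell. Origins crowd into open, gene-rich and early replicating chromatin, and they are sparse in gene-poor, late replicating chromatin. Chromosome 1 holds both kinds: 1p36 is a gene-rich, light-staining end, the middle of the short arm is darker and poorer in genes, and a large block of satellite repeats follows the centromere.

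The unit used below is the common region, an EPIC2 region with 1 or more MACS2 summits of the same replicate inside it. Replicates 1, 2 and 3 had 9535, 2316 and 5468 common regions on chromosome 1. All 3 replicates gave chromosome 1 a density slightly above the mean of chromosomes 1 to 22 and X, with ratios of 1.17, 1.15 and 1.21, a mean of 1.18 ± 0.0323 (SD, n = 3). Densities are per Mb of windows of 1 Mb that held any call, 230 on chromosome 1 and 2877 in all. Replicates differ in how many calls they hold and their read depth is unknown, so each segment was compared with another within the same replicate. The 5 segments held 2204, 1921, 1636, 873 and 2898 common regions in replicate 1, in order along the chromosome. Replicate 2 had 613, 484, 347, 250 and 620, and replicate 3 had 1278, 1145, 888, 556 and 1600. The remaining 3, 2 and 1 common regions of replicates 1, 2 and 3 lay in chr1:121000001-142000000, outside the segments.

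Common regions were dense from the tip to 55 Mb, sparse in the middle of the short arm and dense again in 1q21-q23. Further out they were somewhat below the mean of chromosomes 1 to 22 and X. Replicate 1 held 78.7 common regions per Mb in 1p36, 71.1 from 28 to 55 Mb, 24.8 in the middle of the short arm, 43.7 in 1q21-q23 and 32.9 on the far long arm. Replicate 2 held 21.9, 17.9, 5.26, 12.5 and 7.05 per Mb in that order. Replicate 3 held 45.6, 42.4, 13.5, 27.8 and 18.2 per Mb. The order of the 5 segments was the same in all 3 replicates, although replicate 1 had many more calls than replicate 2.

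As a ratio to the density over chromosomes 1 to 22 and X, 1p36 reached 2.35 ± 0.134 (SD, n = 3) and the segment from 28 to 55 Mb reached 2.07 ± 0.0775. The 1q21-q23 segment stood at 1.36 ± 0.106, the far long arm at 0.887 ± 0.0734 and the middle of the short arm at 0.662 ± 0.0554. Set among whole chromosomes, 1p36 came after chromosome 19 (2.63 ± 0.695) and chromosome 17 (2.61 ± 0.291), whose means differed from it by less than their own spread. Within replicates 1, 2 and 3 the ratios of 1p36 were 2.23, 2.49 and 2.32. Chromosome 17 was above it in each (2.28, 2.82 and 2.73), and chromosome 19 was above it except in replicate 3 (2.26, 3.44 and 2.20). The middle of the short arm came just above chromosome 13 (0.590 ± 0.0700). Chromosome X, with 152 windows in the reference, stood at only 0.0985, 0.131 and 0.0077, so ratios to the other chromosomes alone would be lower. The first 28 Mb made up 12.2% of the Mb with calls and held 23.1%, 26.5% and 23.4% of the common regions of chromosome 1.

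**Figure D1:**
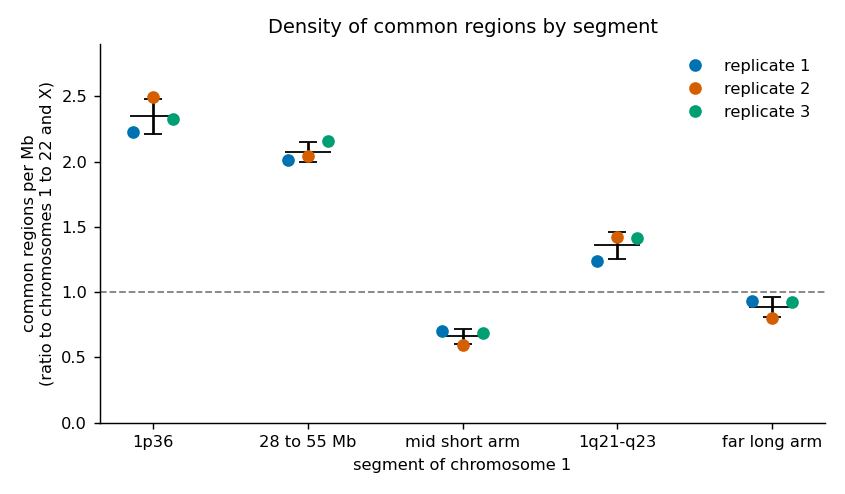
Common regions per Mb in each segment of chromosome 1, divided by the density over chromosomes 1 to 22 and X (dashed line at 1). Points are replicates, horizontal bars are means and error bars are SDs (n = 3). The first 55 Mb lie at about 2 or above in every replicate, and the middle of the short arm lies below 1 in every replicate.

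Against the rest of chromosome 1, 1p36 was 2.17, 2.60 and 2.20 times as dense in replicates 1, 2 and 3, a mean of 2.32 ± 0.238 (SD, n = 3). Every replicate pointed the same way, with a two-sided exact sign test p of 0.25, the smallest that 3 replicates can give, so no comparison of this design can reach 0.05. Next to 1p36 in the order of density came the segment from 28 to 55 Mb. The difference in ratio to the genome, 1p36 minus that segment, was 0.214, 0.451 and 0.165 in replicates 1, 2 and 3. Its mean was 0.277 ± 0.153 (SD, n = 3), with 1p36 higher in 3 of 3 replicates (exact sign test p = 0.25). On the long arm, 1q21-q23 was 1.33, 1.77 and 1.53 times as dense as the far long arm, a mean of 1.54 ± 0.225 (SD, n = 3), higher in 3 of 3 replicates (exact sign test p = 0.25).

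The contrast between segments was smaller when summits alone were counted. Replicate 1 had 126, 121.5, 62.9, 78.5 and 76.6 summits per Mb in the 5 segments from the tip onward. Replicate 2 had 41.1, 37.2, 17.3, 24.1 and 21.1, and replicate 3 had 85.8, 86.7, 51.8, 57.5 and 61.0. In replicate 3 the segment from 28 to 55 Mb therefore exceeded 1p36, and the far long arm exceeded 1q21-q23. With summits as the unit, the density ratio of 1p36 to the rest of the chromosome was 1.63, and that of 1q21-q23 to the far long arm was 1.04.

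The 2 callers overlapped to a different degree along the chromosome. In replicate 1, 79.4% of summits in 1p36 lay in an EPIC2 region of the same library, compared with 45.6% in the middle of the short arm and 57.5% over chromosomes 1 to 22 and X. In replicate 2 these shares were 59.3%, 32.5% and 44.2%. In replicate 3 they were 67.2%, 31.6% and 43.7%. EPIC2 regions covered far more of 1p36, 26.1%, 10.3% and 30.8% of its length, than of the middle of the short arm, where they covered 4.49%, 2.26% and 5.63%. Relative to the length covered, the share of summits in regions was lowest in 1p36 (3.04, 5.75 and 2.181 times) and highest in the middle of the short arm (10.2, 14.4 and 5.61 times). Both callers read the same library. The ratio has a ceiling that falls as coverage rises, and the part that coverage plays in the shares was not tested beyond it.

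Seen from the regions, the direction was less even. In 1p36, 76.5%, 62.3% and 66.4% of EPIC2 regions held a summit, beside 81.7%, 56.8% and 71.7% over chromosomes 1 to 22 and X. In the middle of the short arm 86.8%, 60.7% and 77.0% did. The share in 1p36 minus that in the rest of the chromosome was -5.74, 1.97 and -6.04 points, a mean of -3.27 ± 4.54 (SD, n = 3), lower in 2 of 3 replicates (exact sign test p = 1). The mean was -1.88 points without replicate 3 and -5.89 without replicate 2, so the difference was within the spread between replicates. Within 1p36, EPIC2 regions without a summit were wider than all EPIC2 regions, with medians of 2200, 3400 and 4000 bases against 2000, 2800 and 3800.

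The 2 callers' scores did not order the segments alike. Percentiles were taken within each replicate, since no source used here says what the EPIC2 score measures. Common regions of 1p36 had median EPIC2 percentiles of 64.1, 56.1 and 60.3, and those of the middle of the short arm had 38.2, 39.0 and 36.1. By the best summit they held, the medians of 1p36 were 42.3, 53.97 and 43.1, and those of the middle of the short arm were 56.4, 52.6 and 60.2. By EPIC2 score 1p36 stood above the middle of the short arm in every replicate, while by summit score it stood below in replicates 1 and 3 and slightly above in replicate 2.

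Windows of 1 Mb showed how evenly each segment was filled. In 1p36 the windows of replicate 1 held from 13 to 129 common regions with a median of 88. In replicate 2 they held from 4 to 41 with a median of 22.5, and in replicate 3 from 4 to 83 with a median of 50. No window of the first 55 Mb was empty in any replicate. In the middle of the short arm the medians were 19, 4 and 10, and 1, 8 and 2 of 66 windows were empty in replicates 1, 2 and 3. The SD of window counts divided by their mean was 0.391, 0.377 and 0.513 in 1p36, compared with 0.795, 0.830 and 0.921 in the middle of the short arm and 0.885, 0.764 and 0.955 in 1q21-q23.

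**Figure D2:**
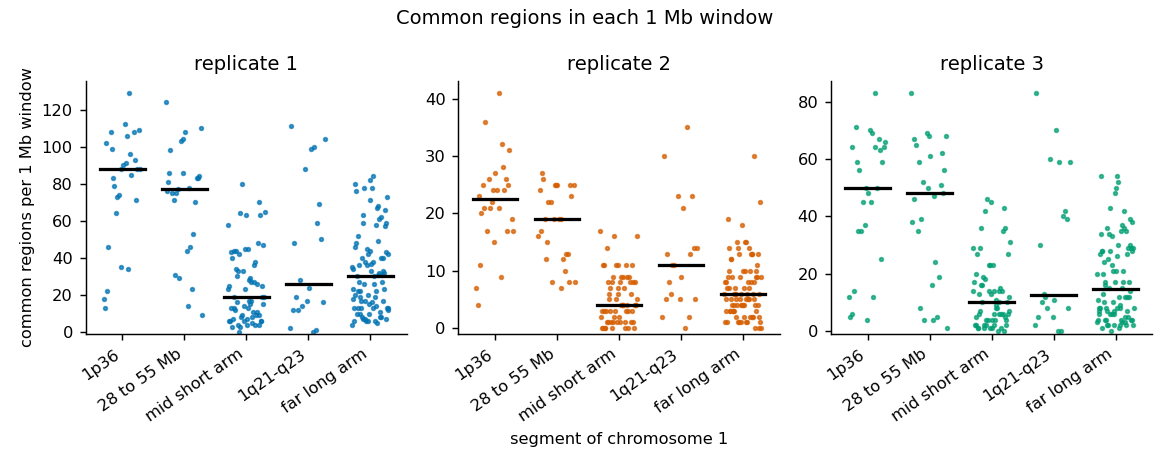
Common regions in each window of 1 Mb, by segment of chromosome 1 and replicate, with a separate vertical scale for each replicate. Points are windows that held a call of any replicate and black lines are medians. The first 2 segments have no empty window, while the windows of 1q21-q23 run from 0 to 111 common regions in replicate 1.

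The 5 densest windows by mean count over replicates lay in the 3 dense segments. The densest of all was chr1:27000001-28000000, the last window of 1p36, with 129, 32 and 83 common regions in replicates 1, 2 and 3. Its neighbour chr1:28000001-29000000, across the boundary, held 124, 16 and 83. Across the line drawn at 28 Mb the count therefore stayed much the same in replicates 1 and 3 and fell from 32 to 16 in replicate 2. The other 3 were chr1:155000001-156000000 in 1q21-q23 with 111, 30 and 83, chr1:1000001-2000000 with 106, 41 and 69, and chr1:9000001-10000000 with 112, 24 and 70. Beside the next boundary, the window before 55 Mb held 81, 17 and 46 and the window after it 58, 17 and 29, with no change in replicate 2. Where 1q21-q23 met the far long arm the counts went from 59, 13 and 40 to 35, 6 and 20.

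Dense segments held sparse patches and sparse segments held dense ones. The stretches in this paragraph and the next were picked after their values were seen and are given as descriptions. From 4 to 6 Mb in 1p36, common regions numbered 28.5, 13 and 5 per Mb in replicates 1, 2 and 3, and from 8 to 12 Mb they numbered 109, 23.5 and 68. From 48 to 51 Mb the density fell to 17.3, 7.67 and 3 per Mb, and from 51 to 55 Mb it was 80.3, 15.5 and 54.3. In the middle of the short arm, chr1:102000001-109000000 had 6.29, 0.714 and 2 per Mb, and the adjoining chr1:109000001-111000000 had 72.5, 16 and 38.5. On the far long arm, chr1:186000001-200000000 had 11.4, 2.21 and 5.93 per Mb, and chr1:200000001-206000000 had 77.5, 17 and 41.2.

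Density also varied widely within 1q21-q23. Its first 8 Mb, chr1:142000001-150000000, held 13.5, 5.63 and 9 common regions per Mb. In chr1:150000001-152000000 the density was 101.5, 17.5 and 64.5, and in chr1:153000001-157000000 it was 92, 27.8 and 61. The single Mb between these, chr1:152000001-153000000, held only 19, 8 and 10, and the last 5 Mb held 35, 10.2 and 20.2 per Mb. Counted from 150 Mb, a start chosen after seeing the data, 1q21-q23 was 2.19 times as dense as the far long arm in place of 1.54.

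Replicates ranked the windows alike, though not equally in all segments. The Spearman correlation of window counts between replicates 1 and 3 was 0.931, 0.915, 0.941, 0.944 and 0.932 in the 5 segments, over 28, 27, 66, 20 and 88 windows. Between replicates 2 and 3 it was 0.519 in 1p36 and 0.570 from 28 to 55 Mb, and between 0.743 and 0.944 in the other segments. Between replicates 1 and 2 it was 0.554 in 1p36 and 0.727 from 28 to 55 Mb, and between 0.817 and 0.938 in the other segments. In 1p36 the pairs with replicate 2 were thus the weaker ones. These are descriptions over windows of the same libraries, whose counts share each library's depth and the base composition of each window. Replicate 2 held fewer common regions than replicate 3 on the chromosome, yet it exceeded replicate 3 in 24 of 230 windows. In 1p36 there were 4 such windows, among them chr1 from 4 to 5 Mb with 35, 15 and 4 common regions in replicates 1, 2 and 3. From 49 to 50 Mb the counts were 9, 8 and 1.

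Common regions of the dense segments were also the wider ones. The median width in 1p36 was 2000, 2200 and 3800 bases in replicates 1, 2 and 3, and in 1q21-q23 it was 2000, 2600 and 4000. In the middle of the short arm it was 1200, 2000 and 2800 bases. EPIC2 regions move in steps of 200 bases, which limits how finely medians can differ. Against the rest of the chromosome, the median in 1p36 was wider by 400, 0 and 800 bases, a mean of 400 ± 400 (SD, n = 3), wider in 2 of 3 replicates (exact sign test p = 1). Without replicate 3 the mean was 200 bases and without replicate 2 it was 600, so the difference was no larger than its own spread.

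The upper tail of widths separated the segments more than the median did. In 1p36, 10.8%, 9.46% and 33.4% of common regions spanned at least 5 kb, and in 1q21-q23 9.85%, 13.2% and 34.9% did. In the middle of the short arm the shares were 1.04%, 4.03% and 11.5%, and on the far long arm they were 2.42%, 4.68% and 15.3%. These shares were not split by how crowded a window was, but the median width was. It was larger in the denser windows of each segment, except in replicate 2 of 1q21-q23. There it was 2400 bases in windows with a mean of at least 40 common regions and 2600 in those of 10 to 40. In windows with a mean of at least 40 common regions, the median width was 2200, 2400 and 3800 bases in 1p36 and 1600, 2200 and 3200 on the far long arm. Windows of 10 to 40 had 1600, 2000 and 3200 bases in 1p36 and 1400, 2000 and 2800 on the far long arm.

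**Figure D3:**
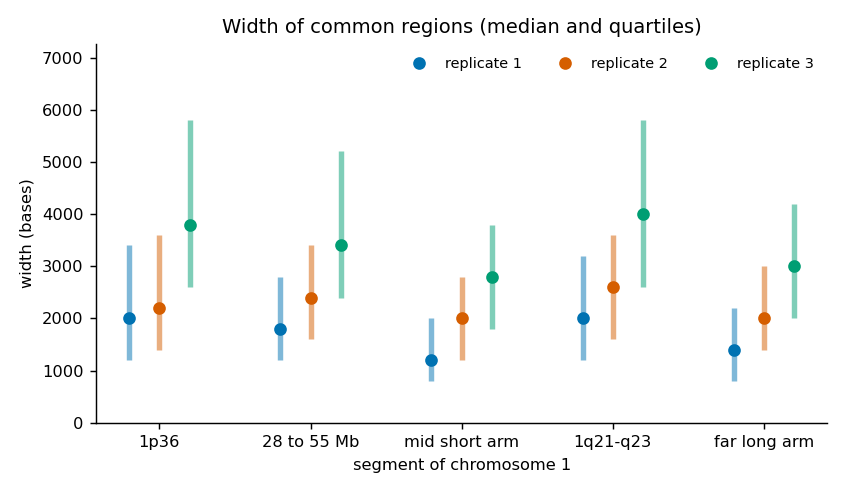
Width of common regions in bases, by segment of chromosome 1 and replicate. Points are medians and vertical bars run from the lower to the upper quartile. Replicate 3 has the widest regions in every segment, and in each replicate the narrowest median is that of the middle of the short arm, which replicate 2 shares with the far long arm.

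Spacing followed density. The median distance from the end of a common region to the start of the next was 5600, 24000 and 7600 bases in 1p36 in replicates 1, 2 and 3. In the middle of the short arm it was 14400, 98400 and 22200 bases, and on the far long arm it was 12200, 67600 and 16600. The median in 1p36 was 0.583, 0.478 and 0.594 times that of the rest of the chromosome, a mean of 0.552 ± 0.0640 (SD, n = 3), shorter in 3 of 3 replicates (exact sign test p = 0.25). Distances under 5 kb made up 45.3%, 13.9% and 36.8% of all in 1p36, and 19.2%, 4.91% and 13.98% in the middle of the short arm.

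In 1q21-q23 the median distance was 5800, 26600 and 7600 bases, close to that of 1p36 although the density was lower. It was also shorter than from 28 to 55 Mb, a denser segment, where it was 6600, 29400 and 8800 bases. The median distance divided by the mean distance expresses this. It would be 0.693 for regions placed independently at 1 rate, with no width, and falls where regions bunch. The ratio was 0.293, 0.355 and 0.251 in 1q21-q23, the lowest of the 5 segments in each replicate. In 1p36 it was 0.574, 0.573 and 0.454, the highest in each replicate. The middle of the short arm had 0.374, 0.529 and 0.313. By this measure common regions of 1q21-q23 were the least evenly spaced of the 5 segments. The ratio cannot tell tight groups from stretches of unlike density. In 1q21-q23, chr1:142000001-150000000 held 13.5, 5.63 and 9 common regions per Mb, and chr1:150000001-152000000 held 101.5, 17.5 and 64.5.

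**Figure D4:**
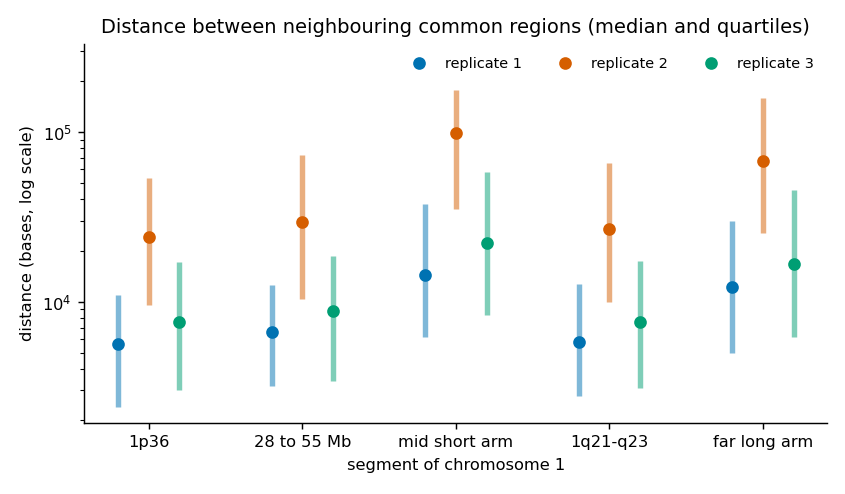
Distance in bases between neighbouring common regions, on a log scale, by segment of chromosome 1 and replicate. Points are medians and vertical bars run from the lower to the upper quartile. The medians of 1q21-q23 lie beside those of 1p36, and the longest medians are those of the middle of the short arm.

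The longest stretch with no common region of any replicate was 908200 bases in 1p36, at chr1:12873201-13781400. From 28 to 55 Mb it was 256200 bases, at chr1:49638601-49894800. In the middle of the short arm it was 710800 bases, at chr1:72826401-73537200. In 1q21-q23 it was 1208200 bases, at chr1:142797001-144005200, the longest of the 5, and on the far long arm it was 540400 bases, at chr1:216010401-216550800. The segment from 28 to 55 Mb had the shortest of these, whereas 1p36 held a longer one than either sparse segment. Whether reads could be placed in these stretches was not tested.

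Common regions of the dense segments overlapped those of another replicate more often. In 1p36, 59.6%, 86.8% and 71.3% of the common regions of replicates 1, 2 and 3 overlapped one of another replicate by at least 1 base. The same shares over chromosomes 1 to 22 and X were 48.4%, 79% and 60.9%. In 1q21-q23 they were 62.2%, 86.4% and 69.2%, from 28 to 55 Mb 55.5%, 81.8% and 65.0%, in the middle of the short arm 37.7%, 74.4% and 47.9%, and on the far long arm 39.6%, 71.8% and 50.5%. The 3 dense segments stood above the genome share and both sparse ones below it in each replicate. The share in 1p36 exceeded that of the rest of the chromosome by 13.5, 9.45 and 14.9 points, a mean of 12.6 ± 2.83 (SD, n = 3), higher in 3 of 3 replicates (exact sign test p = 0.25). Without replicate 3 the mean was 8.02 points. Where the overlap had to reach 50% of both regions, it was 4.38 points.

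Overlap is easier to meet where the other replicate covers more ground, so coverage was set beside the shares. Common regions of replicate 1 covered 20.3% of 1p36 and 3.74% of the middle of the short arm. They held 67.2% of the summits of replicate 2 in 1p36 and 37.7% in the middle of the short arm. The share of summits divided by the share of length was 3.31 in 1p36, 3.88 from 28 to 55 Mb, 10.1 in the middle of the short arm, 5.66 in 1q21-q23 and 8.04 on the far long arm. For summits of replicate 3 in regions of replicate 1 it was 2.11, 2.34, 5.34, 3.56 and 4.04. In these pairs 1p36 had the highest plain share of summits and the lowest ratio. In regions of replicate 2, the ratio was lower from 28 to 55 Mb than in 1p36, at 3.10 against 3.18 for summits of replicate 1 and 1.46 against 1.64 for summits of replicate 3. The middle of the short arm had the highest ratio in all 6 pairs. Such a ratio has a ceiling that falls as coverage rises. Common regions of replicate 2 covered only 5.73% of 1p36, and the part that the ceiling plays in the low ratios was not tested.

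**Figure D5:**
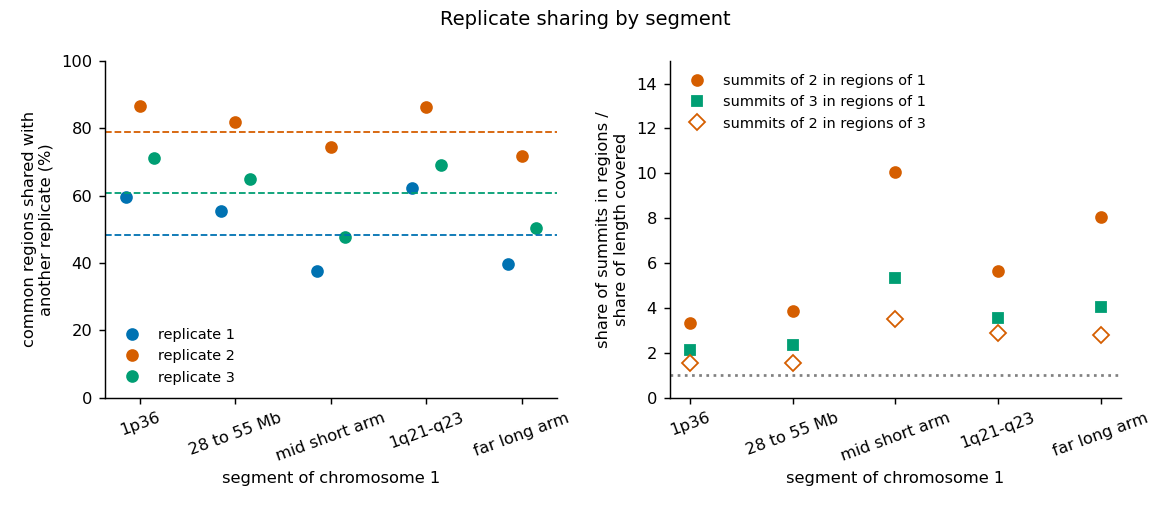
Left, the percentage of common regions that overlap a common region of another replicate, by segment of chromosome 1, with the value over chromosomes 1 to 22 and X as a dashed line in the colour of each replicate. Right, the share of summits of 1 replicate that lie in common regions of another, divided by the share of length those regions cover, where 1 (dotted line) is the value for summits spread evenly. The plain share is highest in 1p36 and 1q21-q23, and the ratio is highest in the middle of the short arm.

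Sharing was also counted between summits, which have no width. In 1p36, 42.9% of the summits of replicate 2 lay within 100 bases of a summit of replicate 1, beside 37.3% over chromosomes 1 to 22 and X. The share was 38.1% from 28 to 55 Mb, 35.8% in the middle of the short arm, 42.0% in 1q21-q23 and 35.5% on the far long arm. Summits of replicate 3 matched replicate 1 in 10.7%, 10.1%, 10.7%, 10% and 10.1% of cases in the 5 segments, beside 10.5% genome-wide. Summits of replicate 2 matched replicate 3 in 6.86% of cases in 1p36 and 8.34% in the middle of the short arm, beside 7.37%. In the pairs with replicate 3 the share in 1p36 was thus close to the genome-wide share, and in the pair of replicates 1 and 2 it was higher. Summits are denser in 1p36, so more of its length lies within 100 bases of one. Divided by that share of length, the matches of replicate 2 to replicate 1 were 16.96 times in 1p36, 28.3 times in the middle of the short arm and 24.5 times over chromosomes 1 to 22 and X. For replicate 3 against replicate 1 these ratios were 4.21, 8.43 and 6.91, so by this measure 1p36 lay below the genome value in both. The length within 100 bases of a summit of replicate 1 was 2.53% in 1p36 and 1.26% in the middle of the short arm. The plain shares of replicate 3 against replicate 1 were alike there, so these ratios differed through the length. For replicate 2 against replicate 3 the ratio was 3.98 in 1p36 and 6.51 over chromosomes 1 to 22 and X. Relative to that length, matches in 1p36 were thus below the genome value in each pair. A cause was not tested.

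In windows of intermediate density, the shared percentage was highest in 1q21-q23. In windows with a mean of 10 to 40 common regions, 57.5%, 81.2% and 66.3% of its common regions overlapped another replicate. The other 4 segments lay between 36.8% and 38.8% in replicate 1, between 67.7% and 75.8% in replicate 2, and between 48.3% and 54.2% in replicate 3. The first 8 Mb of 1q21-q23, next to the centromeric block, held few common regions, but 71.3%, 86.7% and 83.3% of them were shared. The windows of intermediate density numbered 8 in 1q21-q23, some of them in its first 8 Mb, and no test of the difference was run. In windows with a mean of at least 40 common regions, 65.7%, 91.8% and 71.0% were shared in 1q21-q23 and 61.4%, 88.8% and 72.2% in 1p36, so replicate 3 was lower in 1q21-q23.

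Overlapping common regions of the 3 replicates were joined, and a merged region held by at least 2 replicates was called a consensus origin. Chromosome 1 had 4134 consensus origins among 11641 merged regions, or 35.5%, beside 34.5% over chromosomes 1 to 22 and X. Dropping a replicate left 760 without replicate 1, 3061 without replicate 2 and 1718 without replicate 3, so replicate 1 decided most of the number. From the tip onward the 5 segments held 1101, 927, 594, 444 and 1066 consensus origins. That was 45.1% of merged regions in 1p36, 40.8% from 28 to 55 Mb, 27.4% in the middle of the short arm, 45.4% in 1q21-q23 and 28.2% on the far long arm. Per Mb there were 39.3, 34.3, 9, 22.2 and 12.1.

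On chromosome 1, 715 consensus origins, 17.3%, were held by all 3 replicates, beside 19.1% genome-wide. The share was 22.9% in 1p36 and 23.6% in 1q21-q23, above that background, and 15.5%, 10.9% and 13.9% from 28 to 55 Mb, in the middle of the short arm and on the far long arm. The segment from 28 to 55 Mb was thus nearly as dense as 1p36 but stayed below the background in sharing by all 3 replicates. Consensus origins had median widths of 5000, 4200, 3000, 5000 and 3400 bases in the 5 segments and covered 23.025%, 17.6%, 3.13%, 13.8% and 4.87% of them. Merging joins neighbours, so these are wider than the common regions they came from. Pairs of replicates 1 and 3 made up 54.1% of consensus origins in 1p36, and pairs of 2 and 3 without replicate 1 made up 1.27%.

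Single consensus origins of all 3 replicates showed the range. The widest on the chromosome lay in 1q21-q23 at chr1:144985801-145048200, spanned 62400 bases and held 14, 6 and 17 summits of replicates 1, 2 and 3. The widest of 1p36 was chr1:22112201-22145800, with 33600 bases and 6, 2 and 3 summits. From 28 to 55 Mb it was chr1:29098801-29128600 (29800 bases), in the middle of the short arm chr1:65611801-65629000 (17200 bases) and on the far long arm chr1:202096401-202121000 (24600 bases).

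The consensus origins with the best summit scores spanned 1400 to 5400 bases, far less than the widest ones. In 1p36 this was chr1:16955001-16958200, whose top summits scored 34.8, 19.4 and 27.5 as −log10 of the q-value. From 28 to 55 Mb it was chr1:32476601-32480600, with 39.0, 46.6 and 10.3, and in the middle of the short arm chr1:97311401-97312800, with 21.4, 23.1 and 14.2. In 1q21-q23 it was chr1:142535401-142540800, with 48.1, 41.9 and 83.2, and on the far long arm chr1:194069401-194073400, with 26.1, 14.8 and 11.5. The one in 1q21-q23 had the highest mean percentile of the 5 and lay at the edge of the centromeric block, in a window with few other calls. That on the far long arm lay inside the sparse stretch chr1:186000001-200000000, so high summit scores were not limited to crowded ground.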

How the data were processed

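SNS-seq calls of 3 replicates of untreated HCT116 were analysed. Alignment by the authors was to hg19 (Bowtie2 2.3.4.2), and they removed duplicates (Picard 2.18.17) and called each replicate with MACS2 2.1.0.20151222 (q-value 0.1) and EPIC2 (FDR 0.1), per the methods and the submitters' processing notes. No control library for calling was named there. Regions in the deposited EPIC2 lists carry a score whose kind is not stated in the sources used here. The deposited MACS2 lists hold summits with a score read as −log10 of the q-value. The lists hold calls and no reads, so depth is unknown and no counting interval was given.

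Regions were placed by midpoint. Values were computed per replicate and compared by the exact sign test over replicates, two-sided. Named regions were the 5 densest windows, the windows beside inner boundaries and, per segment, the longest bare stretch and the widest and best-scored consensus origin of all 3 replicates. Members and lists were chosen with earlier results of these data known. Alternatives covered the unit, a q-value of 0.01, the upper 50% of EPIC2 scores, overlap, boundaries, 25279 common regions per replicate and leaving out a replicate. On chromosome 1 the final call reached base 249216371, beyond the chromosome's end in the GRCh38 reference at hand (248956422), so no gene was named and no sequence was read. Interval functions were tested on simulated data. Python 3.11.15, numpy 2.4.6 and scipy 1.17.1 were used.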

Additional observations from a re-analysis of the deposited data

Results flagged for a closer look

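Calls in chr1:121000001-142000000 lie outside the 5 segments and entered none of their comparisons. They held 7 summits in replicate 1, 4 in replicate 2 and 7 in replicate 3, all in chr1:121000001-122000000, beside 3, 2 and 1 EPIC2 regions. The summits at 121485213, 121485211 and 121485160 of replicates 1, 2 and 3 scored 1305, 2272 and 3497 as −log10 of the q-value. The EPIC2 regions around them were chr1:121484201-121485400, chr1:121484001-121485400 and chr1:121484001-121485600. The best scores named in the segments reached 83.2. A cause was not tested.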

How the results depend on the processing

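Of 67 alternative values for 7 results, 48 stayed within the spread between replicates or, for the number of consensus origins, within 1.5 times. The values are means over replicates or counts, and none turned the direction of a mean. Single replicates could turn: with summits, 1q21-q23 was denser than the far long arm in 2 of 3 replicates and less dense in replicate 3. The density ratio of 1p36 (2.32) was 1.63 with summits, 2.62 with consensus origins, 2.96 with the upper 50% of EPIC2 scores and 3.15 with equal numbers of common regions. That of 1q21-q23 (1.54) was 1.04, 1.83, 2.24 and 2.46 under the same settings, and 2.19 from 150 Mb, a start chosen after seeing the data. The width difference was 1400 bases with consensus origins, and the spacing ratio 0.717 with summits. The sharing difference was 4.38 points with a reciprocal overlap of 50% and lay between 8.02 and 13.2 with a replicate left out. Consensus origins (4134) numbered 2261 with the upper 50% of scores, 2302 with reciprocal overlap, 1576 with equal numbers and 715 where all 3 replicates were required, and lay between 760 and 3061 with a replicate left out. Equal numbers and the upper 50% keep the best-scored regions, so fewer enter; other causes were not tested. Copy number, mappability and depth along the chromosome were not analysed here. A sign test over 3 replicates cannot pass 0.05, so the direction in each replicate and the SD carry the comparisons.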
